A study of Mus musculus with 8 samples.

Results

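The proteasome genes of Ba/F3 cells were described across 4 groups of cells, as the genes whose name on the array begins with Psm, a letter for the kind of subunit and a number. By name, 49 genes matched, with 79 probes, and 48 of them were among the 13710 genes and unnamed transcripts tested. A gene counted as measured if 1 or more groups had a probe well above background on each of their 2 arrays, and the brightest such probe stood for the gene. This left 48 genes, each well above background on all 8 arrays and none saturated. The gene left out was Psmb11, the beta subunit of the thymus proteasome, whose 2 probes stayed at background on all arrays. Psmc3ip matches the name but encodes no proteasome protein, so 47 proteasome genes were counted and Psmc3ip is given apart.

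Ba/F3 is a mouse pro-B cell line that needs interleukin 3 (IL3). Its cells carried FLT3/ITD, a form of this growth factor receptor kinase that an internal tandem duplication makes active, or wild type FLT3. They were kept in 10% serum with 0.1 ng/ml IL3, washed, and then held for 4 h in RPMI1640 with 0.5% BSA. Some received 100 ng/ml of the chemokine Cxcl12 in that time and the others did not. The groups were FLT3/ITD + Cxcl12, wild type FLT3 + Cxcl12, FLT3/ITD and wild type FLT3, with 2 arrays each. The labels name 2 ITD lines, N51 and N78, and do not say what sets them apart, how FLT3 was expressed or whether a line was 1 clone. The N78 arrays and 1 array of each wild type group lay on one slide (set 2), and the N51 arrays with the others on another (set 1), so ITD line and slide cannot be told apart. Nothing says that replicates were separate cultures, so p-values measure only the spread between these samples.

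The proteasome is the protease that destroys ubiquitin-tagged proteins in the cytosol and nucleus. Its barrel-shaped 20S core has outer rings of alpha subunits and inner rings of beta subunits, of which Psmb5, Psmb6 and Psmb7 cut proteins. The 19S cap binds, unfolds and feeds in the substrate, with a base of ATPases (Psmc genes) and further subunits (Psmd genes). In lymphoid cells and under interferon, Psmb8, Psmb9 and Psmb10 replace the cutting subunits to form the immunoproteasome, which makes peptides for MHC class I.

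Levels are log2 values relative to the 75th percentile of each array, an intensity of 367 to 600.0 in set 2 and 937 to 1109 in set 1, the lowest being that of the wild type FLT3 array of set 2. Per array, 49.2% to 55.0% of probes were well above background. Of 17 markers of pro-B and IL3-dependent cells, 9 were well above background on all arrays, among them Cd79a and Vpreb1, and 7 on none, among them Pax5, Ebf1 and Rag1. The log2 of the summed level of the 10 measured genes of that list was 8.52 and 8.04 on the N78 arrays with and without Cxcl12. On the wild type arrays of set 2 it was 9.27 and 8.68. The N51 arrays gave 8.55 and 8.15, against 8.80 and 8.68 on the wild type arrays of set 1. Of 9 mast cell and basophil markers, 5 were well above background on all arrays, Cpa3 and Gata2 among them, and 1 on none (Tpsb2). The log2 of the summed level of the 8 measured was 5.50 to 7.08 on FLT3/ITD arrays and 7.68 to 8.49 on wild type arrays. Of 10 macrophage and dendritic cell markers 3 were well above background on all arrays. The log2 of the summed level of the 4 measured was 2.80 to 3.18 on the N78 arrays. On the wild type arrays of set 2 it was 4.17 to 4.39. It was 5.51 and 5.40 on the N51 arrays with and without Cxcl12, against 5.36 and 5.59 on the wild type arrays of set 1. The pro-B and mast cell sums were thus lower on every FLT3/ITD array than on its partner, the macrophage sum on those of set 2 and on 1 of set 1, and their part in the proteasome values was not tested. Fewer cells of a kind and less RNA per cell cannot be told apart in these samples.

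The probes below, each 60 bases, measured the gene with the lowest adjusted p between FLT3/ITD and wild type cells (Psma3), an assembly factor that also passed (Psmg1), and a cutting subunit of the constitutive core and of the immunoproteasome (Psmb7 and Psmb8). They are shown because each spans more of the genome than its own length, and so crosses at least 1 intron, which ties it to spliced RNA. Coordinates are those of mm9 in the deposited files, and the sequences are in the direction of the transcript.
Psma3, chr12:72079794-72084356, plus strand: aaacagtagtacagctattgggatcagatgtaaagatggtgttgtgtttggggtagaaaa
Psmg1, chr16:96201661-96203710, minus strand: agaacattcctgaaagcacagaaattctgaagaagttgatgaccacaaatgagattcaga
Psmb7, chr2:38468966-38489385, minus strand: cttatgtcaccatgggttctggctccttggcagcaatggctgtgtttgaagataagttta
Psmb8, chr17:34337828-34338152, plus strand: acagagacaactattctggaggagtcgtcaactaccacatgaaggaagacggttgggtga

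Between FLT3/ITD and wild type FLT3 cells the average difference was small and above 0 for most proteasome genes, and few genes passed the test. Averaged over cells with and without Cxcl12, the difference was above 0 for 45 of 47 genes, with a median of 0.37 (log2). Over all 13710 features tested, 48.9% were above 0 and the median was -0.01. Only 3 genes passed the test (rose), Psma3, Psmg1 and Psmg4, and none fell. This is close to the background, as 6.21% of all features passed in this comparison and 3.6% passed as higher. The test was limma with the array set as a block, at a Benjamini-Hochberg adjusted p under 0.05 over all features. Without adjustment, 18 of the 47 had a p under 0.05, as did 3600 of all 13710 features.

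Psma3 encodes a subunit of the outer alpha ring. Its level was 4.27 and 4.08 on the N78 arrays with and without Cxcl12, against 3.54 and 3.26 on the wild type arrays of set 2. In set 1 it was 4.75 and 4.13 on the N51 arrays with and without Cxcl12, against 3.84 and 3.84 on the wild type arrays. Every FLT3/ITD array thus lay above every wild type array, and Psma3 rose 1.61-fold (log2 difference 0.69 ± 0.15, SE, limma adjusted p = 0.0313). Of the 2 other probes named Psma3, one differed by 0.06 and the other by -0.47 (log2), so the rise holds for the probe printed above.

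Psmg1 and Psmg4 encode chaperones that help to build the alpha ring and are not part of the finished proteasome. Psmg1 was at 3.42 and 3.23 on the N78 arrays with and without Cxcl12, against 2.33 and 2.30 on the wild type arrays of set 2. In set 1 it was at 4.17 and 3.56 on the N51 arrays with and without Cxcl12, against 3.22 and 3.43 on the wild type arrays. The groups overlapped between sets, but each FLT3/ITD array lay above the wild type array of the same treatment and set. Psmg1 rose 1.71-fold (log2 0.78 ± 0.17, SE, limma adjusted p = 0.0318).

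Psmg4 was at 2.33 and 1.97 on the N78 arrays with and without Cxcl12, against 1.46 and 1.40 on the wild type arrays of set 2. Set 1 gave 3.40 and 2.82 on the N51 arrays with and without Cxcl12, against 2.55 and 2.45 on the wild type arrays. Again each FLT3/ITD array was above its partner, and Psmg4 rose 1.59-fold (log2 0.66 ± 0.14, SE, limma adjusted p = 0.0322). The other alpha ring chaperones, Psmg2 and Psmg3, differed by 0.21 and 0.61 (log2) and did not pass, Psmg3 with a level of 3.33 on the N51 + Cxcl12 array and 1.95 on the N51 array without it. None of the 47 genes passed without the block, the filter on dim probes or the intensity trend, nor with normexp background correction. Without the block no feature of all those tested passed either. For the other settings the share of all features is not given, so their counts cannot be read as particular to proteasome genes. The count also changed with the array left out, but such a fit leaves a group with 1 array, so those counts are not given.

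**Figure D1:**
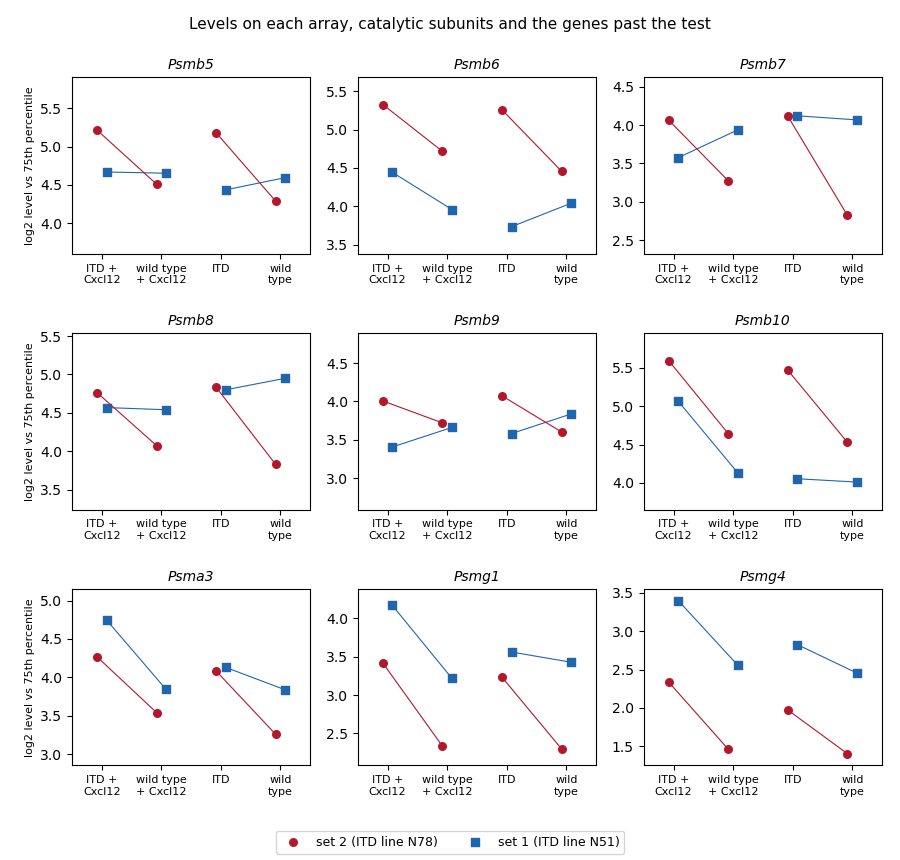
Levels (log2 relative to the 75th percentile of the array) of the cutting subunits Psmb5 to Psmb7, the immunoproteasome subunits Psmb8 to Psmb10 and the 3 genes that passed, 1 point per array, with red circles for set 2 (ITD line N78) and blue squares for set 1 (N51). Lines join the FLT3/ITD array to the wild type array of the same set and treatment. Psma3, Psmg1 and Psmg4 slope down from FLT3/ITD to wild type in both sets, and Psmb5 to Psmb8 do so in set 2, while in set 1 the lines of each of those genes run in opposite directions. Psmb10 also slopes down in both sets, though little in set 1 without Cxcl12. Psmb9 slopes down in set 2 and up in set 1.

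The ITD difference was then taken apart by set. In set 2, N78 cells were above wild type for 42 of 46 genes with Cxcl12 and 45 of 47 without it, with median log2 differences of 0.57 and 0.76. In set 1, N51 cells were above wild type for 36 of 47 genes with Cxcl12 and 20 of 47 without it, with medians of 0.21 and -0.04. Over all features the corresponding medians were 0.04 and -0.004 in set 2 and 0.05 and -0.09 in set 1. The shares of all features above wild type, with and without Cxcl12, were 52.6% and 49.8% in set 2 and 54.1% and 39.1% in set 1. A total of 42 genes were above wild type in both treatments in set 2, against 16 in set 1, and the share of all features was not counted for this.

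A fit with 1 ITD difference per set was chosen after these values were seen. It held 1 Cxcl12 term shared by all cells, so arrays with and without Cxcl12 stood as the replicates of each line. That sharing was not tested. The median Cxcl12 difference was 0.02 in N78 and 0.19 in wild type cells of set 2, and 0.17 in N51 and 0.01 in wild type cells of set 1. The fit gave 26 genes that rose and 1 that fell in N78 cells against wild type. Here 17.5% of all features passed, 9.87% as higher and 7.62% as lower, so the 26 of 47 genes that rose stand beside a background of 9.87%. The median difference was 0.66 over the 47 genes and 0.01 over all features. In this set the 75th percentile itself was 600.0 and 539 on the N78 arrays with and without Cxcl12, against 488 and 367 on the wild type arrays, and its part in the counts was not tested. In N51 cells none of the 47 passed, with a background of 2.76% and a median of 0.11. Here 3 of the 47 had an unadjusted p under 0.05, as did 2357 of all 13710 features. The difference between the 2 ITD differences, N78 minus N51, had a median of 0.51 and was above 0 for 43 of 47 genes. Over all features the median was 0.03 and 53% were above 0. For the 47 genes this difference was tested as well. It passed for none of them (background 0.511%), though 20 had an unadjusted p under 0.05, as did 2160 of all 13710 features. The lowest limma adjusted p was 0.0913, for Psmd6. Thus no single gene was shown to differ between N78 and N51.

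The counts changed when single arrays were left out. Such a fit leaves a group with 1 array, so a change in the proteasome genes cannot be told apart from a loss of precision over all features. In N78 cells the median stayed between 0.57 and 0.74 with each array of set 2 left out. With the median of each array in place of its 75th percentile the median of the 47 genes was 0.84, that of all features being 0.19, and with quantile normalization it was 0.50. Without the FLT3/ITD + Cxcl12 array of set 1 the N51 median was -0.02.

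**Figure D2:**
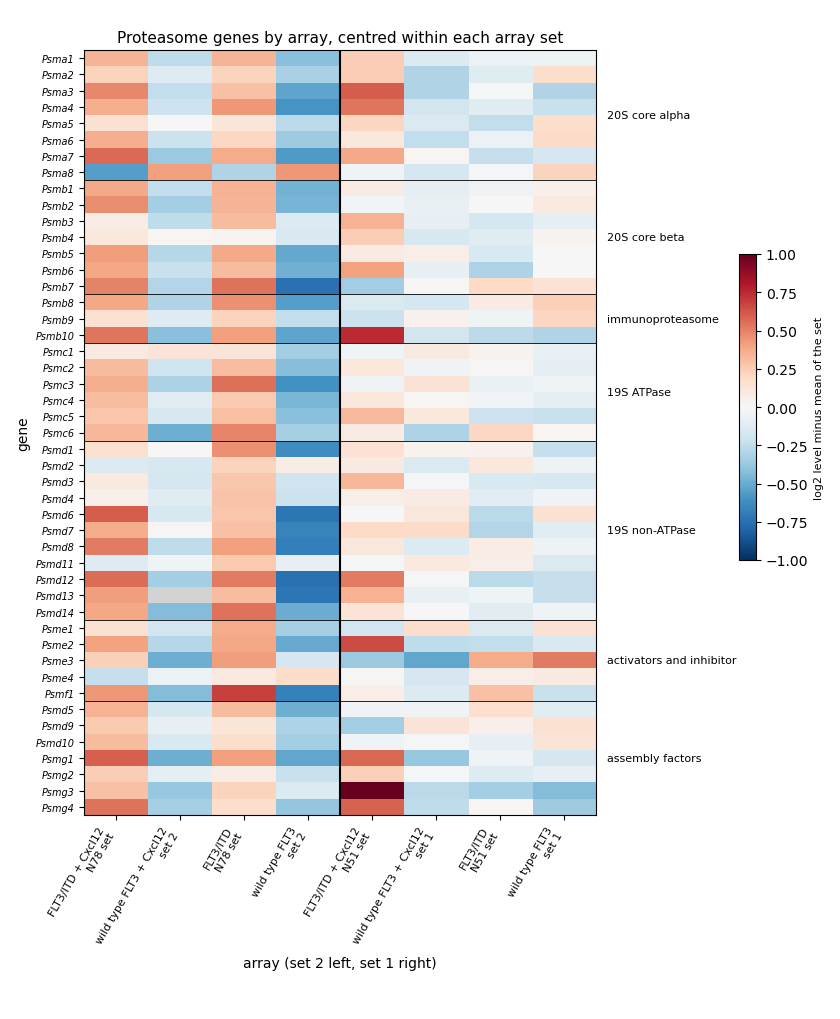
Level of each proteasome gene on each array minus the mean of the gene over the 4 arrays of its set (log2, red above and blue below, values beyond 1 drawn in the end colour), with genes by role down the page and set 2 left of set 1. In set 2 the FLT3/ITD columns are red and the wild type columns blue for most genes and the reverse for Psma8, and in set 1 the red cells gather in the FLT3/ITD + Cxcl12 column. The grey cell is Psmd13 on the wild type FLT3 + Cxcl12 array of set 2, set to missing as an outlier spot.

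**Figure D3:**
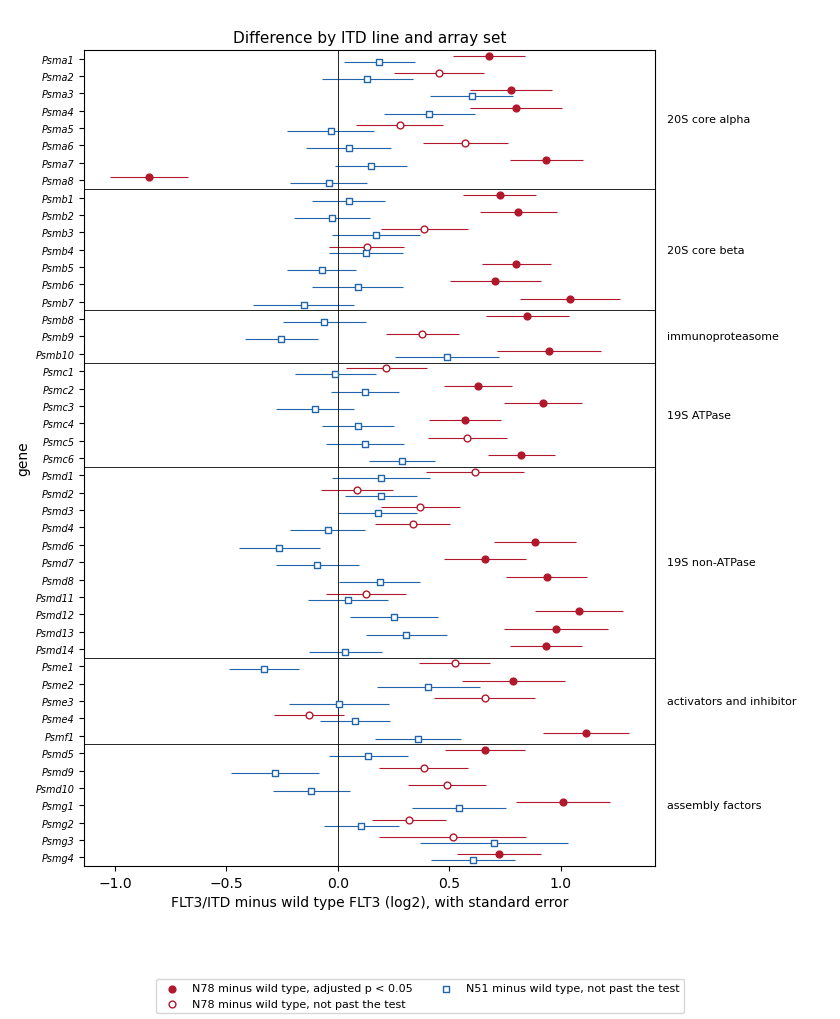
FLT3/ITD minus wild type FLT3 (log2) for each proteasome gene in set 2 (N78, red circles) and set 1 (N51, blue squares), with the standard error of the fit, and filled symbols where the adjusted p was under 0.05. Of the red circles, 26 are filled to the right of 0 and 1 to the left, and no blue square is filled.

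In the alpha ring, 4 of 8 genes rose in N78 cells and 1 fell. Psma7 rose most, at 6.70 and 6.51 on the N78 arrays with and without Cxcl12, against 5.77 and 5.57 on the wild type arrays of set 2 (log2 0.93 ± 0.16, SE, limma adjusted p = 0.00737). In set 1 Psma7 was at 6.52 and 5.91 on the N51 arrays with and without Cxcl12 and at 6.16 and 5.97 on the wild type arrays, so the pair without Cxcl12 ran the other way. Psma1, Psma3 and Psma4 also rose in N78 cells (0.68, 0.78 and 0.80), and Psma2, Psma5 and Psma6 did not pass (0.45, 0.28 and 0.57).

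Psma8, the alpha subunit of the proteasome of testis, went the other way. It was at 2.24 and 2.49 on the N78 arrays with and without Cxcl12, against 3.20 and 3.22 on the wild type arrays of set 2. On the set 1 slide the level was 3.63 and 3.65 on the N51 arrays with and without Cxcl12, against 3.48 and 3.88 on the wild type arrays, where the order differed between treatments. Psma8 fell in N78 cells (log2 -0.85 ± 0.17, SE, limma adjusted p = 0.0126), and averaged over both sets its difference was -0.45 and did not pass.

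The cutting subunits of the constitutive core, the targets of proteasome inhibitor drugs, rose in N78 cells. Psmb5, which cuts after hydrophobic residues, was at 5.22 and 5.18 on the N78 arrays with and without Cxcl12, against 4.51 and 4.29 on the wild type arrays of set 2. The set 1 values were 4.67 and 4.44 on the N51 arrays with and without Cxcl12, against 4.65 and 4.60 on the wild type arrays. The groups did not overlap in set 2 and did in set 1 (N78: 1.74-fold, log2 0.80 ± 0.15, SE, limma adjusted p = 0.0105; N51: log2 -0.07 ± 0.15).

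Psmb6, which cuts after acidic residues, was at 5.33 and 5.26 on the N78 arrays with and without Cxcl12, against 4.72 and 4.46 on the wild type arrays of set 2. Its set 1 level was 4.44 and 3.73 on the N51 arrays with and without Cxcl12, against 3.96 and 4.04 on the wild type arrays. The N51 arrays thus lay on either side of their partners, while Psmb6 rose 1.63-fold in N78 cells (log2 0.71 ± 0.20, SE, limma adjusted p = 0.043).

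Psmb7, which cuts after basic residues, was at 4.06 and 4.11 on the N78 arrays with and without Cxcl12, against 3.27 and 2.82 on the wild type arrays of set 2. The slide of set 1 read 3.58 and 4.12 on the N51 arrays with and without Cxcl12, against 3.94 and 4.07 on the wild type arrays. Psmb7 rose 2.06-fold in N78 cells (log2 1.04 ± 0.23, SE, limma adjusted p = 0.0154), the wild type array without Cxcl12 being the lowest of all 8. Of the beta subunits that do not cut, Psmb1 and Psmb2 rose in N78 cells (0.72 and 0.81), while Psmb3 and Psmb4 did not pass (0.39 and 0.13). Psmb4 was at 6.83 and 6.75 on the N78 arrays with and without Cxcl12, against 6.75 and 6.57 on the wild type arrays of set 2. In set 1 Psmb4 was at 6.46 and 6.09 on the N51 arrays with and without Cxcl12, against 6.05 and 6.25 on the wild type arrays. Its N78 and N51 differences were 0.13 each, and -0.18 in N78 cells with quantile normalization.

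Of the immunoproteasome subunits, Psmb8 and Psmb10 rose in N78 cells and Psmb9 did not pass. Psmb8, which takes the place of Psmb5, was at 4.76 and 4.83 on the N78 arrays with and without Cxcl12, against 4.07 and 3.83 on the wild type arrays of set 2. In set 1 it was at 4.57 and 4.80 on the N51 arrays with and without Cxcl12, against 4.54 and 4.95 on the wild type arrays. The 2 treatments of set 1 ran in opposite directions, and Psmb8 rose 1.80-fold in N78 cells (log2 0.85 ± 0.19, SE, limma adjusted p = 0.0164).

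Psmb10, which takes the place of Psmb7, was at 5.59 and 5.47 on the N78 arrays with and without Cxcl12, against 4.64 and 4.53 on the wild type arrays of set 2. Set 1 gave 5.06 and 4.05 on the N51 arrays with and without Cxcl12, against 4.13 and 4.01 on the wild type arrays. The N51 + Cxcl12 array stood out in set 1. Psmb10 rose 1.93-fold in N78 cells (log2 0.95 ± 0.23, SE, limma adjusted p = 0.0243), and its average over both sets, 0.72, missed the threshold (limma adjusted p = 0.0503).

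Psmb9, which takes the place of Psmb6 and lies in the MHC near Psmb8, was at 4.01 and 4.07 on the N78 arrays with and without Cxcl12, against 3.72 and 3.60 on the wild type arrays of set 2. In set 1 the order was turned, with 3.41 and 3.58 on the N51 arrays with and without Cxcl12, against 3.66 and 3.84 on the wild type arrays. Neither difference passed (N78 0.38 ± 0.16, N51 -0.25 ± 0.16, SE, limma adjusted p = 0.143 and 0.46), and the difference between them, 0.63 ± 0.23, did not pass either (limma adjusted p = 0.243). Of the 6 cutting subunits of both kinds, 5 rose in N78 cells, where 9.87% of all features did.

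In the 19S base, 4 of 6 ATPase genes rose in N78 cells. Psmc6 had the highest average over both sets of the 6, with 5.31 and 5.47 on the N78 arrays with and without Cxcl12, against 4.49 and 4.65 on the wild type arrays of set 2. On the set 1 slide the level was 5.85 and 5.97 on the N51 arrays with and without Cxcl12, against 5.46 and 5.79 on the wild type arrays, so all 4 FLT3/ITD arrays lay above their partners. Psmc6 rose in N78 cells (log2 0.82 ± 0.15, SE, limma adjusted p = 0.00843), as did Psmc2, Psmc3 and Psmc4 (0.63, 0.92 and 0.57). Psmc5 missed the threshold (0.58, limma adjusted p = 0.0509). Psmc1 was at 4.56 and 4.61 on the N78 arrays with and without Cxcl12 and at 4.61 and 4.13 on the wild type arrays of set 2, with groups that overlapped (0.22). In set 1 it was at 4.51 and 4.59 on the N51 arrays with and without Cxcl12, against 4.64 and 4.48 on the wild type arrays.

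Of the 11 further subunits of the 19S cap, 6 rose in N78 cells. Psmd12, a scaffold subunit of the lid, was at 5.23 and 5.19 on the N78 arrays with and without Cxcl12, against 4.33 and 3.93 on the wild type arrays of set 2. The set 1 values were 5.25 and 4.45 on the N51 arrays with and without Cxcl12, against 4.70 and 4.49 on the wild type arrays. Psmd12 rose 2.12-fold in N78 cells (log2 1.08 ± 0.20, SE, limma adjusted p = 0.00875). Psmd14, the enzyme that strips ubiquitin from the substrate, rose by 0.93, and its partner in the lid, Psmd7, rose by 0.66. Psmd6, Psmd8 and Psmd13 rose by 0.88, 0.94 and 0.98, the last from a fit that dropped 1 missing array.

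The ubiquitin receptor Psmd4 did not pass in N78 cells (0.34), nor did Psmd2, a base subunit that docks ubiquitin-like proteins (0.08), or Psmd1 and Psmd3 (0.61 and 0.37). Psmd11, a lid scaffold, had the lowest average difference of the class, 0.09, or -0.07 with quantile normalization. It was at 5.10 and 5.49 on the N78 arrays with and without Cxcl12, against 5.19 and 5.15 on the wild type arrays of set 2, so the groups overlapped. Its set 1 level was 5.46 and 5.53 on the N51 arrays with and without Cxcl12, against 5.58 and 5.33 on the wild type arrays.

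Of the proteins that bind the ends of the core, Psme2 and Psmf1 rose in N78 cells. Psmf1, a proteasome inhibitor in the test tube, was at 1.39 and 1.64 on the N78 arrays with and without Cxcl12, against 0.52 and 0.28 on the wild type arrays of set 2. The slide of set 1 read 0.20 and 0.42 on the N51 arrays with and without Cxcl12, against -0.01 and -0.10 on the wild type arrays. Each FLT3/ITD array lay above its partner, and the 2.16-fold rise in N78 cells was the highest of the 47 genes in this fit (log2 1.11 ± 0.19, SE, limma adjusted p = 0.00739). The 2 other probes named Psmf1 differed by -0.07 and -0.89 in N78 cells, so the rise holds for the brightest probe.

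Psme1 and Psme2 form the activator ring that goes with the immunoproteasome. Psme2 rose by 0.79 in N78 cells (limma adjusted p = 0.0464) and Psme1 missed the threshold (0.52, limma adjusted p = 0.0505). The Psme2 probe carries the name of the near-identical Psme2b-ps in the set 1 files, so its source is uncertain. Psme3, the nuclear activator, differed by 0.66 in N78 cells and did not pass. Psme4, the activator with roles in sperm and DNA repair, was at 4.19 and 4.52 on the N78 arrays with and without Cxcl12, against 4.36 and 4.61 on the wild type arrays of set 2. In set 1 it was at 4.83 and 4.89 on the N51 arrays with and without Cxcl12, against 4.65 and 4.91 on the wild type arrays, and its average difference was -0.03, or 0.10 with median scaling.

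Among the assembly factors, Psmd5, Psmg1 and Psmg4 rose in N78 cells (0.66, 1.01 and 0.72). Psmd5, Psmd9 and Psmd10 are chaperones of the 19S base, and Psmd9 and Psmd10 did not pass (0.38 and 0.49). Psmd9 was at 1.67 and 1.53 on the N78 arrays with and without Cxcl12, against 1.33 and 1.101 on the wild type arrays of set 2. Set 1 gave 0.84 and 1.23 on the N51 arrays with and without Cxcl12, against 1.30 and 1.33 on the wild type arrays, which is the opposite order. Psmc3ip, the meiotic recombination factor matched by name alone, rose in N78 cells as well (1.07, limma adjusted p = 0.00644).

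Of 19 measured genes with further probes above background, the 24 further probes had a median difference of 0.67 in N78 cells, and 17 of the 24 had the sign of the probe used. The 7 with the other sign were 2 probes of Psmf1 and 1 each of Psma3, Psma7, Psmd4, Psmd7 and Psme4. For the average over both sets the median was 0.38 and 18 of 24 had the same sign.

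Cxcl12 changed no proteasome gene past the test. Averaged over both kinds of cell, with minus without Cxcl12 had a median of 0.10 over the 47 genes and 0.01 over all features. The difference was above 0 for 35 of the 47 genes and for 51.1% of all features. By limma 0 of 47 genes passed (background 0.387%), and 1 had an unadjusted p under 0.05, as did 2032 of all 13710 features. In FLT3/ITD cells the median was 0.09 and 0 of 47 passed (background 0%). An unadjusted p under 0.05 was found for 2 of the 47 and for 1430 of all features. In wild type FLT3 cells the median was 0.09 and 0 of 47 passed (background 0.0656%), with 1 of the 47 and 981 of all features at an unadjusted p under 0.05. The Cxcl12 difference in FLT3/ITD cells minus that in wild type FLT3 cells passed for none (background 0%), with a median of 0.06. It had an unadjusted p under 0.05 for 0 of 47 and for 236 of all features. With normexp background correction the median of the average Cxcl12 difference over the 47 genes was below 0, at -0.24. The median of all features under that correction is not given, so a shift of all features cannot be told apart from this.

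The FLT3/ITD minus wild type difference was also taken within each treatment. With Cxcl12 the median was 0.36 and 42 of 47 genes were above 0, and without it the median was 0.37 and 44 of 47 were. Of all features, 53.8% were above 0 with Cxcl12 and 45.1% without. Each comparison has 2 arrays against 2, and 0 of 47 genes passed in either (limma, background 0.839% with Cxcl12 and 0.511% without). With and without Cxcl12, 11 and 8 of the 47 had an unadjusted p under 0.05, as did 2497 and 1690 of all 13710 features.

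Psme3 stood lowest among the 47 with Cxcl12. It was at 2.87 and 2.17 on the N78 and N51 arrays with Cxcl12, against 3.05 and 2.92 on those without. In wild type cells it was at 2.14 and 2.02 on the set 2 and set 1 arrays with Cxcl12, against 2.47 and 3.06 on those without. All 4 arrays with Cxcl12 lay below their partner without it, the set 1 pairs by more, and the average difference of -0.57 ± 0.21 (SE) did not pass (limma adjusted p = 0.243).

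**Figure D4:**
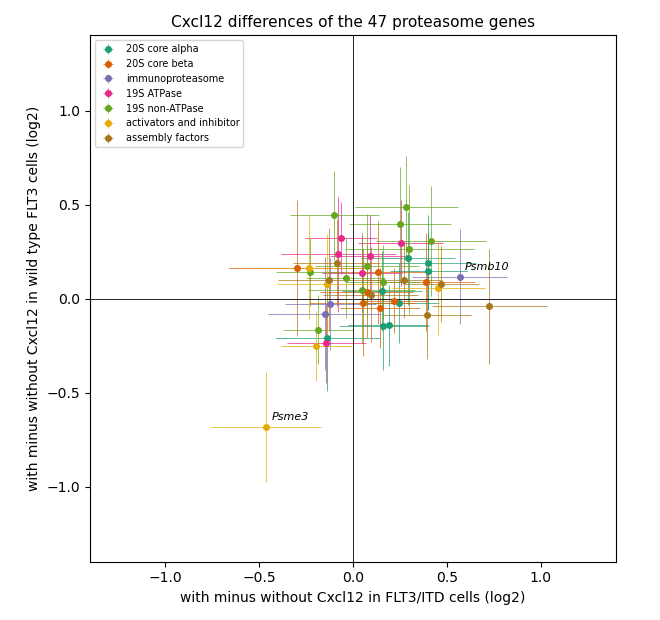
With minus without Cxcl12 (log2) for each of the 47 proteasome genes in FLT3/ITD cells (x axis) and wild type FLT3 cells (y axis), coloured by role, with the standard errors of the fit. The points gather round 0 on both axes, none passed the test, and Psme3 lies lowest at -0.46 and -0.68.

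Genes that work with the proteasome, such as ubiquitin receptors, shuttles and regulators, were read from the same fit. Of 32 measured partners, 3 rose and 1 fell in N78 cells, with a median of 0.11, against 0.66 over the 47 proteasome genes. These counts are not above the background, as 9.87% of all features passed as higher and 7.62% as lower. The 3 that rose were Adrm1, a ubiquitin receptor of the 19S cap, Uchl5, the deubiquitinase bound to it, and Nfe2l2, a transcription factor of the oxidative stress response. Their differences were 0.66, 0.67 and 0.89 (limma adjusted p = 0.0492, 0.0302 and 0.0216). Nfe2l2 was at 2.44 and 2.31 on the N78 arrays with and without Cxcl12, against 1.44 and 1.52 on the wild type arrays of set 2.

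Nfe2l1, the transcription factor that restores proteasome genes when the proteasome is blocked, and Pomp, the chaperone of the beta ring, differed by 0.16 and 0.19 in N78 cells and did not pass. None of the 32 partners passed in N51 cells or in the average over both sets, where the median was 0.12.

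Of 18 measured genes of MHC class I antigen processing, 2 rose in N78 cells and none fell, with a median of 0.27, and the 2 that rose are close to the background of 9.87%. B2m, the light chain of MHC class I, was at 5.92 and 5.94 on the N78 arrays with and without Cxcl12, against 4.77 and 4.65 on the wild type arrays of set 2. On the set 1 slide the level was 4.71 and 5.02 on the N51 arrays with and without Cxcl12, against 4.73 and 4.88 on the wild type arrays. B2m rose in N78 cells (1.22, limma adjusted p = 0.00302), as did the heavy chain gene H2-K1 (0.81, limma adjusted p = 0.0157). The peptide transporter genes Tap1 and Tap2 differed by 0.24 and -0.43 and did not pass, and no gene of the list passed in N51 cells or in the average over both sets.

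Promoters of the proteasome genes were read for 3 short motifs. RefSeq windows (GRCm38.p6, 250 bases before to 50 after a start site) were found for 39 of the 47 genes, as 42 windows. The other genes, the cutting subunit Psmb7 among them, had no window and were not searched. The core of the antioxidant response element to which Nfe2l1 and Nfe2l2 bind, TGACNNNGC on either strand, was in 14.3% of these windows and 12.4% of all 32851 windows. The 6 genes that hold it are Psmb5, Psmb6, Psmc6, Psmd12, Psmd9 and Psme4. The CCAAT box was in 31.0% of the windows and 37.4% of all. The interferon-stimulated response element was searched on both strands as a pair of GAAA with 2 free bases between, and was in 11.9% and 3.4%, and none of the 3 immunoproteasome genes held it in this window.

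The windows of the 2 cutting subunits with an antioxidant response element core are printed with that core in capitals, followed by those of the genes that passed in the average over both sets and held a motif, Psmg4 with the interferon-stimulated response element and Psma3 with CCAAT or its reverse complement in capitals. A match of letters is a description and no binding was measured.
Psmb5, chr14:54617946-54618245, minus strand: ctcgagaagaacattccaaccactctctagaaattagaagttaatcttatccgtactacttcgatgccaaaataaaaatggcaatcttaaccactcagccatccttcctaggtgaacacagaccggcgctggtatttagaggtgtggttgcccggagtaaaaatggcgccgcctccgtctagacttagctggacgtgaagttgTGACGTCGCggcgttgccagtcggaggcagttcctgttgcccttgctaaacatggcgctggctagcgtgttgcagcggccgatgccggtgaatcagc
Psmb6, chr11:70525107-70525406, plus strand: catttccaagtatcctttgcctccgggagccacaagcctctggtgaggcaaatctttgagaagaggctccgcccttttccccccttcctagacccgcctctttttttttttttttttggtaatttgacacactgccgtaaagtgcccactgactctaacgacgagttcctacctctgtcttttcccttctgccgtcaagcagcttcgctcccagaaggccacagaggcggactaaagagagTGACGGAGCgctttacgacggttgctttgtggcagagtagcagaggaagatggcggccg
Psmg4, chr13:34162714-34163013, plus strand: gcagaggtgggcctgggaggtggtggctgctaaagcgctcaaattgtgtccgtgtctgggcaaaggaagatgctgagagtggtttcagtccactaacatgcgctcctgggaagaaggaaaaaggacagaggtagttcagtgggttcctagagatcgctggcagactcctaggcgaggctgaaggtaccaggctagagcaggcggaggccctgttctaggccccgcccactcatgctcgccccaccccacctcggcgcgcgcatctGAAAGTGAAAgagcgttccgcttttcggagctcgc
Psma3, chr12:70974373-70974672, plus strand: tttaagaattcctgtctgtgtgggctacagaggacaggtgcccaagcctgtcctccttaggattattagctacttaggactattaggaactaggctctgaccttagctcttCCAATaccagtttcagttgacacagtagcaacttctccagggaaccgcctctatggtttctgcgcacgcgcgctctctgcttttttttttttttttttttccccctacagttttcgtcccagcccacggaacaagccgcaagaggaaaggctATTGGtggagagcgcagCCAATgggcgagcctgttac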

How the data were processed

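Total RNA of 8 samples was hybridized with 1 dye (Cy3) to Agilent mouse arrays with 60-base probes, 1 array per sample. Agilent Feature Extraction had subtracted background from the intensity that the authors deposited, per the file headers, in version 10.7.3.1 (mm9) in set 2 and 9.5.1.1 (mm7) in set 1. The authors' normalized tables lay within 0.01 log2 of median-scaled intensity for 99.7 to 99.9% of probes and served as an alternative. Here log2 of the processed intensity was taken, the 75th percentile of each array subtracted, outlier spots (93 to 203 per array) set to missing and spots of a probe averaged. A total of 13710 features, of which 1672 had no gene name, were fitted with limma 3.58.1 (R 4.3.3) as 4 group means with array set as block, leaving 3 residual degrees of freedom, with an intensity trend. The fit by set instead held a mean and an ITD difference for each set and 1 Cxcl12 term shared by all cells. The number of arrays limits the precision.

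The slide in the headers gave the pairing: deviations from group means correlated at 0.73 to 0.879 within a set. Levels per array were given for the 6 cutting subunits, every gene passing 1 of the 7 comparisons, and the highest and lowest average ITD difference in each class. Psma7 and Psme3 were added after their values were seen, as was the fit by set. The members and lists were chosen with earlier results of these data known. The lists of partners and of MHC class I genes were described by counts alone, and 1 partner that the counts hold is not reported here. The fit was tested on simulated data. Alternatives were median scaling, quantile normalization, normexp (offset 50), the authors' tables, other filters, the mean of probes, no trend, no or random block, named genes alone and each array left out.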

Additional observations from a re-analysis of the deposited data

How the results depend on the processing

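For the average ITD difference, 3 of 47 proteasome genes passed. The count was 9 with median scaling, 8 with the authors' tables, 5 with probes well above background on all 8 arrays, 5 with named genes alone, and 0 with normexp, with no filter on dim probes, with no trend and with no replicate block, and the count ranged from 0 to 8 with each array left out. With no replicate block, 0 of all 13710 features passed. In N78 cells 27 passed, against 4 with normexp, 13 with no filter, 15 with no trend and 0 to 33 with each array left out. In N51 cells the count was 0 to 6 and for N78 minus N51 it was 0 to 3 with each array left out, and 0 under the other alternatives. In the other comparisons it was 0 under every alternative run. Apart from the average ITD difference with no replicate block, the share of all features passing under each alternative is not given. A change in these counts thus cannot be told apart from a gain or loss of calls over all features. It cannot be read as particular to proteasome genes.

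The median over the 47 genes stayed above 0 under every scaling for the average ITD difference (0.26 to 0.73) and in N78 cells (0.50 to 1.32). Median scaling moved the median of all features to 0.12 in the average difference. Under the other alternatives the median of all features is not given. A shift of all features there cannot be told apart from one of these genes. Differences that changed sign were near 0 before the change of processing, except that of Psma3 in N78 cells, which was -0.046 with the mean of its probes. With quantile normalization Psmb4 was -0.18 in N78 cells and -0.032 in the average, Psmd11 -0.10 and -0.073, and Psmb9 -0.0352 in the average. Psme4 was 0.047 in N78 cells with median scaling and with the authors' tables and 0.63 with normexp, and in the average it was 0.10, 0.099 and 0.38. With each array left out, the average ran from -0.093 to 0.22 for Psmb9, from -0.15 to 0.25 for Psmd9 and from -0.11 to 0.054 for Psme4, and the N78 difference from -0.015 to 0.45 for Psmc1 and from -0.11 to 0.36 for Psmd11. The cause of these shifts was not tested.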
